A study of Caenorhabditis elegans with 16 samples.

Results

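The genes described here are 10 members of the *C. elegans* LIN-12/Notch pathway, taken by symbol from the 19983 protein-coding genes that overlap at least 1 GATC fragment. They are the co-ligand genes *osm-7*, *osm-11*, *dos-1*, *dos-2* and *dos-3*, the ligand genes *lag-2* and *apx-1*, the receptor genes *lin-12* and *glp-1*, and *lag-1*, which encodes the DNA-binding factor of the pathway. All 10 overlap at least 5 GATC fragments, and none was left out by a filter. Their RNA polymerase occupancy was measured by targeted DamID (TaDa) in larvae. In this assay, the bacterial Dam methyltransferase is fused to RPB-6, a subunit of all RNA polymerase complexes according to the study. The fusion methylates GATC sites near the polymerase, in cells where the promoter of the transgene is active. A fusion of Dam to nuclear GFP (*dam:NLS-GFP*) under the same promoter gives the background from open chromatin.

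The seam cell groups carried single-copy *dam:rpb-6* (strain MBA698) or *dam:NLS-GFP* (MBA692) under *srf-3i1*, an intronic enhancer of *srf-3* joined to the minimal *pes-10* promoter. The hypodermis groups carried *dam:rpb-6* (MBA688) or *dam:NLS-GFP* (MBA693) under *dpy-7syn1*, an altered *dpy-7* promoter. All 4 strains have the *unc-119(ed3)* mutation, rescued by the transgene. L4 animals were taken after 48 h and L2 animals after 24 h, and DNA came from pellets of whole animals. With 2 replicates of each fusion, the 16 libraries form 4 groups of cell type and stage, which are seam cells at L4, seam cells at L2, hypodermis at L4 and hypodermis at L2. Each promoter stands for a cell type only as far as it is active there and nowhere else.

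Notch signalling passes between neighbouring cells. A DSL ligand on one cell binds a Notch receptor on the next, the receptor is cleaved, and its intracellular part enters the nucleus, where it acts with the CSL protein LAG-1 on target genes. In *C. elegans*, small proteins with the DOS motif, such as OSM-11, act as co-ligands beside DSL ligands that lack this motif. *osm-7* and *osm-11* were first known from mutants that resist osmotic stress. In the larval epidermis, seam cells divide in a stem cell-like manner and give daughters to the hypodermis, the syncytium that makes most of the cuticle.

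Occupancy is the log2 ratio of *dam:rpb-6* to *dam:NLS-GFP*, averaged over the GATC fragments of a gene by overlapped length, so that 0 means equal normalised signal from both fusions. Each group has 2 values that share no library. The score averages over all cells in which the promoter is active, so occupancy in fewer cells and lower occupancy per cell cannot be told apart. The files hold ratios and no read counts, so the depth of each library cannot be read from them and the scores carry no counting error.

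The data behind the groups were uneven. A seam cell L4 profile, that of replicate 1 on control 1, followed the ratio of control 2 to control 1 over the fragments (r = 0.9958) and was left out. The 2 values of that group are thus replicate 1 against control 2 and replicate 2 against control 1. Across all genes, the 2 values of a group correlated with r = 0.716 in seam cells at L4, 0.309 in seam cells at L2, 0.772 in hypodermis at L4 and 0.803 in hypodermis at L2. By the above-0 test given further on, 6 of 8 seam cell marker genes passed in seam cells at L4 and 1 passed in seam cells at L2, against 0 in hypodermis at either stage. Of 6 hypodermis marker genes, 3, 1, 1 and 2 passed in seam cells at L4, seam cells at L2, hypodermis at L4 and hypodermis at L2, and those in seam cells at L4 were *dpy-7*, *dpy-13* and *rol-6*. No marker of body wall muscle, intestine, neurons or germ line passed in any group. The neuron marker *snb-1* nonetheless averaged 1.56 in seam cells at L4, 0.98 in seam cells at L2, 1.34 in hypodermis at L4 and 1.84 in hypodermis at L2. The other neuron markers lay between -0.26 and 0.23 in the group means. The mean over the 4 muscle markers lay between 0.25 and 1.74 in the 2 values of seam cells at L2 and below 0 in the other groups, and its part in the values of seam cells at L2 was not tested.

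The co-ligand gene *osm-11* had the highest occupancy of the 10 genes in each group, and *osm-7* and *dos-2* came next in hypodermis. Median occupancy over the 5 co-ligand genes was 0.38 in seam cells at L4, 0.30 in seam cells at L2, 1.30 in hypodermis at L4 and 1.49 in hypodermis at L2. The ligand, receptor and CSL genes lay within 0.36 of 0 in every group mean, apart from *lag-2* in hypodermis at L2. The median of all protein-coding genes was -0.0055, 0.056, -0.024 and -0.018 in the same order of groups.

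**Figure D1:**
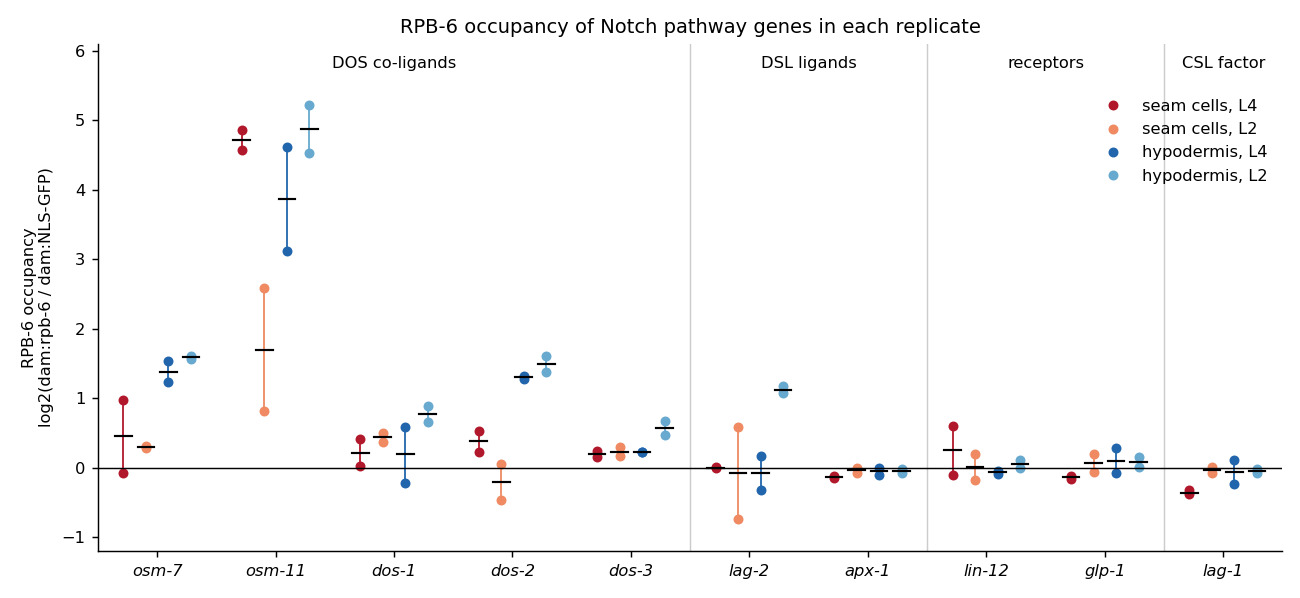
RPB-6 occupancy (y axis, log2 ratio of *dam:rpb-6* to *dam:NLS-GFP*) of the 10 genes (x axis, by role) in seam cells at L4, seam cells at L2, hypodermis at L4 and hypodermis at L2. Each point is 1 of the 2 values of a group, a coloured line joins the pair and a black bar is their mean; *osm-11* stands above all others in every group, and *osm-7* and *dos-2* are at 1.23 or above in all 4 hypodermis values and at 0.98 or below in all 4 seam cell values.

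The first question was which of these genes had occupancy above 0 (limma, 2-sided, adjusted over all genes, adjusted p under 0.05 and a mean above 0). The spread of a gene was pooled over the 4 groups, so a wide pair in a group also widens the tests of the other groups. In seam cells at L4, *osm-11* alone passed (1 of 10), against 2.56% of all genes. In seam cells at L2, 0 of 10 passed, against 0.2% of all genes. In hypodermis at L4, *osm-11* and *dos-2* passed (2 of 10), against 1.49% of all genes. In hypodermis at L2, 4 of 10 genes passed, *osm-7*, *osm-11*, *dos-2* and *dos-3*, where 5.33% of all genes did. At an unadjusted p under 0.05, 3 genes passed in seam cells at L4 (*osm-11*, *dos-2* and *dos-3*, where 11.9% of all genes did) and 2 in seam cells at L2 (*osm-11* and *dos-3*, 9.71% of all genes). The same limit was met by 4 genes in hypodermis at L4 (*osm-7*, *osm-11*, *dos-2* and *dos-3*, 10.1% of all genes) and by 6 in hypodermis at L2 (the 5 co-ligand genes and *lag-2*, 15.2% of all genes). All of the 10 genes that passed the adjusted test were co-ligand genes. Fits with a replicate left out have 1 value in its group, so dependence on a library and loss of power cannot be told apart there. The counts over all genes changed in such fits. Leaving out 1 replicate moved them to between 2 and 509 genes in seam cells at L4 (512 with all replicates), 0 and 210 in seam cells at L2 (40), 1 and 187 in hypodermis at L4 (298), and 0 and 1065 in hypodermis at L2 (1066). They were lowest without either replicate of the group itself, apart from seam cells at L2, where 0 were called without replicate 1, 210 without replicate 2 and 0 without either hypodermis L2 replicate.

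*osm-11* encodes a secreted co-ligand that takes part in LIN-12 signalling in vulval precursor cells. It lies on the minus strand of chromosome X (WBGene00003891; chrX:17420211-17421582, WBcel235) and is covered by 5 fragments. Its occupancy was 4.86 and 4.57 in seam cells at L4 and 0.82 and 2.58 in seam cells at L2. In the hypodermis it was 4.61 and 3.12 at L4 and 5.22 and 4.53 at L2. The seam cell values at L2 were thus the only ones below 3. By mean occupancy, *osm-11* held rank 9 of all protein-coding genes in seam cells at L4, 190 in seam cells at L2, 29 in hypodermis at L4 and 8 in hypodermis at L2. Its mean passed the above-0 test in seam cells at L4 (adjusted p = 0.024), hypodermis at L4 (adjusted p = 0.045) and hypodermis at L2 (adjusted p = 0.016), and not in seam cells at L2 (adjusted p = 0.27). With the replicate block, the call was lost in seam cells at L4 (adjusted p = 0.057) and hypodermis at L4 (adjusted p = 0.092). It was also lost in all 3 groups with the profiles as deposited. That setting brings back replicate 1 of seam cells at L4 against control 1, the profile left out for following the ratio of the controls. The *osm-11* mean in seam cells at L4 was then 2.31. Leaving out either replicate of the group itself gave adjusted p = 0.11 and 0.19 in seam cells at L4, 0.12 and 0.27 in hypodermis at L4, and 0.10 and 0.16 in hypodermis at L2. The call in seam cells at L4 was further lost without either hypodermis L2 replicate (adjusted p = 0.064), and that in hypodermis at L4 without any 1 of the 8 replicates (adjusted p between 0.053 and 0.27).

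The *osm-11* signal was spread differently over the gene in the 4 groups. All 5 fragments in seam cells at L4 scored above 0 in both replicates, and the highest was the second from the 5′ end, with 5.73 and 5.04. In hypodermis, the highest fragment was the last, at the 3′ end, with 5.88 and 4.06 at L4 and 7.13 and 5.64 at L2. Seam cells at L2 kept signal in the second fragment, with 1.46 and 4.36, and in the third, with 1.11 and 2.75. Both values were also above 0 in the last fragment (0.34 and 0.49), but not in a wholly exonic stretch of 182 bp before it. The stretch scored 4.07 and 4.80 in seam cells at L4, 0.18 and -0.61 in seam cells at L2, 4.57 and 3.89 in hypodermis at L4, and 5.24 and 5.24 in hypodermis at L2. The fragment across the gene start, in the same order of groups, averaged 3.59, 0.89, 1.98 and 4.59. Differences at single fragments are descriptions and were not tested.

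*osm-7* encodes a DOS-motif protein related to OSM-11 and acts with it in the response to osmotic stress. It is on the plus strand of chromosome III (chrIII:13576182-13580662) and is covered by 12 fragments. Over the whole gene it reached 0.98 and -0.073 in seam cells at L4 and 0.28 and 0.31 in seam cells at L2. In the hypodermis it reached 1.53 and 1.23 at L4 and 1.61 and 1.56 at L2, and no seam cell value was as high as the lowest of these. Its above-0 test gave adjusted p = 0.38 in seam cells at L4, 0.62 in seam cells at L2, 0.069 in hypodermis at L4 and 0.029 in hypodermis at L2. Leaving out 1 hypodermis L2 replicate raised the last of these to between 0.16 and 0.23, and leaving out 1 library of seam cells at L2 or of hypodermis at L4 raised it to between 0.055 and 0.057. In hypodermis at L4, *osm-7* passed in 6 of 19 alternatives, namely quantile normalisation (adjusted p = 0.020), both controls averaged (0.024), unweighted fragments (0.038), median centring (0.049) and without either seam cell L4 replicate (0.049 each).

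The hypodermal signal over *osm-7* lay in the middle and 3′ parts of the gene. The study reports that RPB-6 signal averaged over genes also leans to the 3′ region and is low near the transcription start. Whether *osm-7* departs from that average was not tested. Cut into 3 stretches of equal length, from 5′ to 3′, the gene averaged 0.15, 0.66 and 0.55 in seam cells at L4 and 0.23, 0.23 and 0.43 in seam cells at L2. The same stretches in hypodermis averaged 0.30, 1.6 and 2.24 at L4 and 0.47, 1.88 and 2.42 at L2. Of its 12 fragments, 2 in seam cells at L4 and 1 in seam cells at L2 scored above 0 in both replicates, against 11 in hypodermis at L4 and 11 at L2. The peak was a fragment of 279 bp (125 bp exonic, the rest intronic) centred 2490 bp from the gene start. It scored 3.49 and -1.07 in seam cells at L4 and 0.11 and -0.023 in seam cells at L2, against 4.39 and 3.0 in hypodermis at L4 and 4.90 and 3.74 in hypodermis at L2. The 2 seam cell values at L4 thus had opposite signs there, and the higher of them lay among the hypodermis values. The last fragment of *osm-7* runs into the start of *T05D4.5*, whose own occupancy was between -0.21 and 0.33 in the 4 group means.

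*dos-2* encodes another DOS-motif protein. It is on the plus strand of chromosome II (chrII:3976242-3978043), is covered by 8 fragments and shares none with another protein-coding gene. It scored 0.23 and 0.52 in seam cells at L4 and 0.047 and -0.47 in seam cells at L2. In the hypodermis it scored 1.28 and 1.32 at L4 and 1.38 and 1.6 at L2, so that the cell types did not overlap at either stage. Over all pairs of replicate and control that were kept, the range was 0.23 to 0.52 in seam cells at L4, -0.56 to 0.047 in seam cells at L2, 1.2 to 1.58 in hypodermis at L4 and 1.38 to 1.65 in hypodermis at L2. The mean passed the above-0 test in hypodermis at L4 (adjusted p = 0.032) and L2 (adjusted p = 0.014), but not in seam cells at L4 (adjusted p = 0.23). With the replicate block, the call in hypodermis at L4 was lost (adjusted p = 0.074), as it was without either replicate of seam cells at L4, hypodermis at L4 or hypodermis at L2 (adjusted p between 0.068 and 0.24). The call in hypodermis at L2 was lost without either replicate of that group (adjusted p = 0.10 and 0.12).

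Like *osm-7*, and like the average over genes that the study reports, *dos-2* had its hypodermal signal away from the gene start. Over 3 stretches of equal length, from 5′ to 3′, it averaged 0.51, 1.65 and 1.73 in hypodermis at L4 and 0.68, 1.66 and 2.12 in hypodermis at L2. A fragment of 358 bp stood out in seam cells at L4, with 0.92 and 2.07, and this was also the highest fragment in hypodermis at L4 (2.15 and 2.10) and L2 (1.9 and 2.58). In seam cells at L2 the same fragment scored 0.072 and -1.84. A fragment of 282 bp that starts 12 bp further on, of which 183 bp are exonic, separated the cell types at both stages. It scored 0.41 and -0.016 in seam cells at L4 and -0.0050 and -0.010 in seam cells at L2, against 1.73 and 1.68 in hypodermis at L4 and 2.00 and 2.36 in hypodermis at L2.

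The sequences below are those of the peak fragment of *osm-7* in hypodermis, of the *dos-2* fragment that separated the cell types, and of the *lag-2* fragment described further on, which separated the stages in hypodermis. Each is shown on the strand of its gene, 5′ to 3′, from the WBcel235 reference genome of NCBI RefSeq. They are the fragments with the highest hypodermal mean at L2 among those of at most 300 bases that lie inside the gene and outside its untranslated regions. Capitals mark the GATC sites at both ends, where Dam methylates the adenine.
*osm-7*, chrIII:13578531-13578813, plus strand: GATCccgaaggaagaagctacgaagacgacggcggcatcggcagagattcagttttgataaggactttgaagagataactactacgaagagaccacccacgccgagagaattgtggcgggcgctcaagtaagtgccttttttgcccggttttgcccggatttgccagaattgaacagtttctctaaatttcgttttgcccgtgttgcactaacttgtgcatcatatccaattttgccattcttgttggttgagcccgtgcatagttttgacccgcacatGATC
*dos-2*, chrII:3977628-3977913, plus strand: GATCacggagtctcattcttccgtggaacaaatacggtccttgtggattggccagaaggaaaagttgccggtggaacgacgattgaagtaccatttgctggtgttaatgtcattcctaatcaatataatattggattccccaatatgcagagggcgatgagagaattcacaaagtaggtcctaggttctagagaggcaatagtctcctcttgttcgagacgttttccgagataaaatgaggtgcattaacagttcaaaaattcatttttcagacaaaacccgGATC
*lag-2*, chrV:3188658-3188914, plus strand: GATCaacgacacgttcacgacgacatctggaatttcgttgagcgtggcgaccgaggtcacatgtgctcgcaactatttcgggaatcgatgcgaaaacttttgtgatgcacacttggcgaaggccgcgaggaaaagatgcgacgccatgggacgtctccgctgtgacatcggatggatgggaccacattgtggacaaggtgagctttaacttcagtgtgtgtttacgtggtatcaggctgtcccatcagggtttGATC

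**Figure D2:**
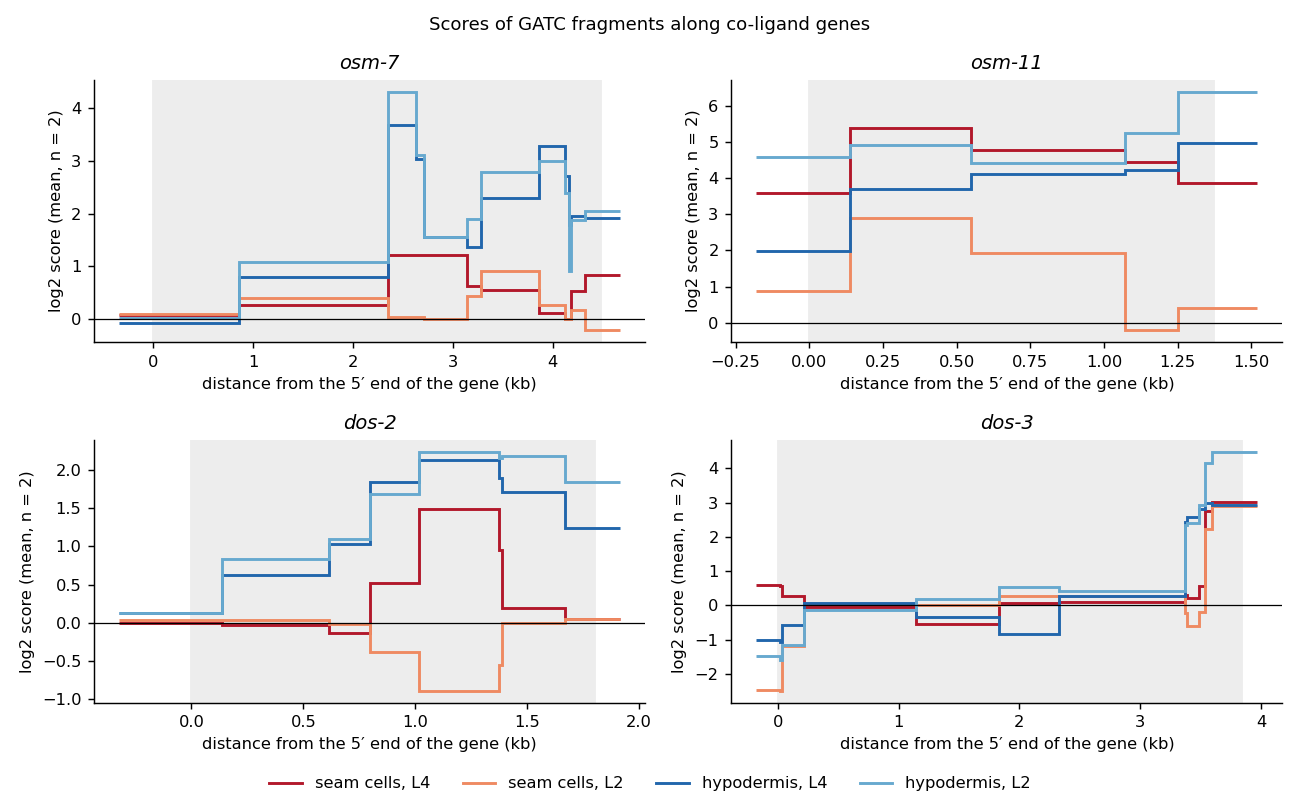
Scores of the GATC fragments (y axis, log2 ratio, mean of 2 values a group) along *osm-7*, *osm-11*, *dos-2* and *dos-3* (x axis, distance from the 5′ end of the gene in kb, gene body shaded) in the 4 groups. In *osm-7* the hypodermis lines peak at 3.69 (L4) and 4.32 (L2) about 2.5 kb into the gene, and in *dos-3* all lines lie near 3 or above only at the 3′ end.

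*dos-3*, on the minus strand of chromosome III (chrIII:835751-839591, 12 fragments), passed the above-0 test in hypodermis at L2 with a low mean. It scored 0.15 and 0.24 in seam cells at L4, 0.30 and 0.17 in seam cells at L2, 0.22 and 0.23 in hypodermis at L4, and 0.47 and 0.67 in hypodermis at L2 (adjusted p = 0.020 in the last). Without either replicate of that group the adjusted p was 0.12, and the call was also lost with crossed controls (0.12), quantile normalisation (0.067) and the profiles as deposited (0.087). The highest scores lay at its 3′ end, where it overlaps *zip-2*, a bZIP transcription factor gene on the other strand. *zip-2* itself averaged 2.3, 2.70, 2.39 and 3.54 in seam cells at L4, seam cells at L2, hypodermis at L4 and hypodermis at L2. Over fragments wholly inside *dos-3*, which leaves out the one shared with *zip-2*, its occupancy was -0.0017, 0.066, 0.050 and 0.31 in the same order, and the call in hypodermis at L2 was lost (adjusted p = 0.068). The assay does not mark strand, so signal from *dos-3* and *zip-2* cannot be told apart in the shared fragment.

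The shared *dos-3* fragment was high in every library, between 2.62 and 3.19 in seam cells and between 2.68 and 5.43 in hypodermis. The 3 fragments that lie 59 bp further into *dos-3*, 169 bp in all, scored between -1.94 and 1.54 in the seam cell libraries and between 1.96 and 3.28 in the hypodermis libraries. The cell types did not overlap in these short fragments, although the whole-gene means of seam cells at L2 and of hypodermis at L4 were both 0.23. They overlapped in the fragment of 59 bp before these, at 1.51 to 3.02 in seam cells and 2.79 to 4.90 in hypodermis. The fragment of 1037 bp on the other side overlapped as well, at -0.099 to 0.65 and 0.26 to 0.52. The short fragments were singled out with their scores known, and the share of all fragments that separate so was not counted.

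*dos-1*, on the plus strand of chromosome III (chrIII:9103943-9106805, 5 fragments), did not pass the above-0 test in any group. Its values were 0.41 and 0.018 in seam cells at L4, 0.50 and 0.37 in seam cells at L2, 0.59 and -0.22 in hypodermis at L4, and 0.89 and 0.66 in hypodermis at L2. The mean was highest in hypodermis at L2, with adjusted p = 0.10 there and 0.049 with both controls averaged. Its highest fragment in hypodermis, at the 3′ end, scored 0.75 and 0.57 in hypodermis at L4, against 2.85 and 2.75 in hypodermis at L2, and is shared with the convergent gene *cya-1*, a cyclin A gene. The whole of *cya-1* averaged 0.10 in seam cells at L4, 0.11 in seam cells at L2, 0.097 in hypodermis at L4 and 0.51 in hypodermis at L2.

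The DSL ligand genes had means near 0 apart from *lag-2* in hypodermis at L2. *lag-2* encodes the ligand by which the distal tip cell keeps germ cells dividing, and lies on the plus strand of chromosome V (chrV:3188343-3190115, 14 fragments). It scored 0.0073 and -0.011 in seam cells at L4, 0.59 and -0.74 in seam cells at L2, 0.16 and -0.32 in hypodermis at L4, and 1.08 and 1.17 in hypodermis at L2. Both hypodermis L2 values thus lay above every other value of *lag-2*, and the share of all genes with that order was not counted. The standard error of the hypodermis L2 mean, 0.31, was drawn from all 4 groups, with the wide pair in seam cells at L2 among them. That mean, 1.12, did not pass the above-0 test (adjusted p = 0.11). It passed without either seam cell L2 replicate (adjusted p = 0.029) and with both controls averaged (adjusted p = 0.0097). In that group, 6.06% of all genes had a higher occupancy. Of the 14 fragments, 2 scored above 0 in both replicates of seam cells at L4, 2 in seam cells at L2, 5 in hypodermis at L4 and 11 in hypodermis at L2.

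The highest *lag-2* fragment in hypodermis at L2 was the one of 253 bp whose sequence is given above. It scored -1.47 and -0.016 in seam cells at L4 and -0.016 and -0.011 in seam cells at L2, against 0.10 and -0.41 in hypodermis at L4 and 2.10 and 1.76 in hypodermis at L2. A second high stretch of 334 bp, of which 288 bp are exonic, scored -0.43 and -0.14 in hypodermis at L4 and 2.24 and 1.45 in hypodermis at L2. In the fragment of 259 bp near the gene start, the 2 hypodermis L2 values were -0.48 and 2.43. In seam cells at L2, a fragment of 181 bp in the middle of the gene scored 2.89 and 0.024, so its signal came from 1 replicate.

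*apx-1*, which encodes the DSL ligand of early embryonic inductions, lies 20.1 kb from *lag-2* with 6 protein-coding genes wholly between them (chrV:3210196-3223221, plus strand, 27 fragments). Its 8 values lay between -0.15 and 0.00043. Group means were -0.13 in seam cells at L4, -0.040 in seam cells at L2, -0.051 in hypodermis at L4 and -0.047 in hypodermis at L2. No *apx-1* fragment averaged above 1 in any group. In hypodermis, L4 minus L2 for *apx-1* was -0.0036 (95% interval -0.20 to 0.19).

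The receptor genes lay near 0 in all groups. *lin-12* encodes the receptor for anchor cell and vulval fates (chrIII:9060221-9071472, minus strand, 28 fragments). It scored -0.11 and 0.60 in seam cells at L4, 0.19 and -0.18 in seam cells at L2, -0.049 and -0.090 in hypodermis at L4, and 0.11 and -0.0077 in hypodermis at L2. The pair in seam cells at L4 was the widest, and its highest fragment there, of 168 bp, scored -0.23 and 3.65. The 3′ end of *lin-12* shares 1 fragment with *gst-1*, a glutathione S-transferase gene, which averaged 0.93 in seam cells at L4 and 1.75 in seam cells at L2, against 0.0025 in hypodermis at L4 and 0.12 in hypodermis at L2.

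*glp-1*, which encodes the receptor that germ cells and early embryos use (chrIII:9092241-9099698, plus strand, 22 fragments), scored -0.16 and -0.12 in seam cells at L4 and 0.20 and -0.066 in seam cells at L2. In hypodermis it scored 0.28 and -0.084 at L4 and 0.0050 and 0.15 at L2, so the groups overlapped except that seam cells at L4 were lowest. Toward the 3′ end, a fragment of 197 bp scored -0.93 and -0.26 in seam cells at L4 and 0.022 and -1.0 in seam cells at L2, against 0.50 and 0.35 in hypodermis at L4 and 1.59 and 1.35 in hypodermis at L2. *lin-12*, *glp-1* and *dos-1* lie close together. *lin-12* and *glp-1* are 20.8 kb apart with 6 protein-coding genes wholly between them, and *dos-1* starts 4.24 kb after *glp-1*. *ZK507.1*, on the other strand, overlaps the 3′ end of *glp-1*, shares 1 fragment with it and reaches into that gap, and it averaged -0.15 in seam cells at L4, 0.0081 in seam cells at L2, -0.045 in hypodermis at L4 and -0.055 in hypodermis at L2.

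*lag-1* (chrIV:6095407-6110655, plus strand, 37 fragments) encodes the CSL factor and is the longest of the 10 genes. It was the lowest of the 10 in seam cells at L4, with -0.38 and -0.33. It scored 0.0061 and -0.077 in seam cells at L2, 0.11 and -0.24 in hypodermis at L4, and -0.084 and -0.022 in hypodermis at L2. The score was lower at the 5′ end of the gene than at the 3′ end, the direction that the study reports for genes on average. Of 3 stretches of equal length, the one at the 5′ end averaged -0.86, -0.16, -0.50 and -0.79 in seam cells at L4, seam cells at L2, hypodermis at L4 and hypodermis at L2, and the one at the 3′ end -0.051, 0.20, 0.36 and 0.47. Negative scores mean more methylation by *dam:NLS-GFP* than by *dam:rpb-6*. An intronic fragment of 654 bp near the 5′ end was below 0 in all 8 values, with -1.93 and -1.68 in seam cells at L4, -2.72 and -0.96 in seam cells at L2, -0.29 and -1.29 in hypodermis at L4, and -1.76 and -1.78 in hypodermis at L2. In hypodermis, the stretch at the 3′ end scored 0.50 and 0.21 at L4 and 0.47 and 0.47 at L2, so both stages were above 0 there. The 3′ end of *lag-1* overlaps *M03D4.3* on the other strand and shares 1 fragment with it, and *M03D4.3* averaged -0.0048 in seam cells at L4, 0.10 in seam cells at L2, -0.0081 in hypodermis at L4 and -0.021 in hypodermis at L2.

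**Figure D3:**
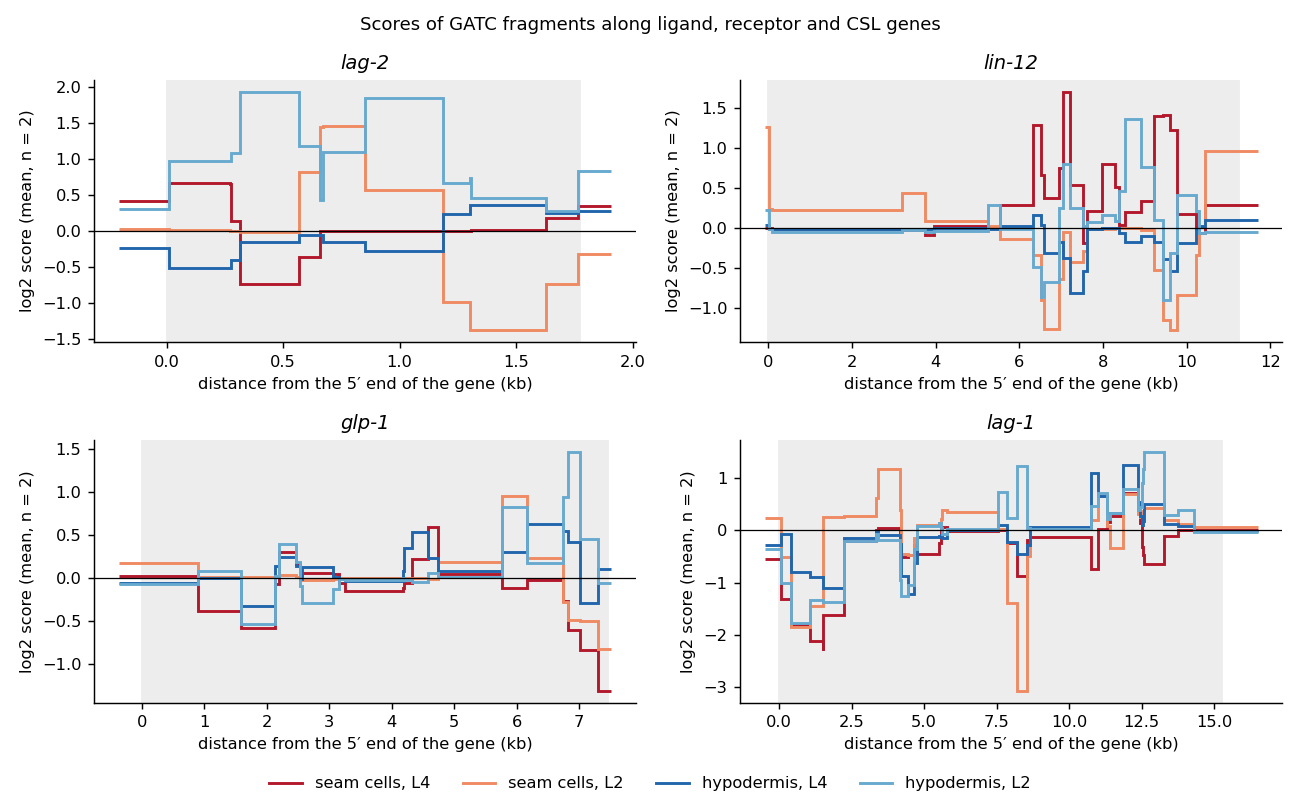
Scores of the GATC fragments (y axis, log2 ratio, mean of 2 values a group) along *lag-2*, *lin-12*, *glp-1* and *lag-1* (x axis, distance from the 5′ end of the gene in kb, gene body shaded) in the 4 groups. Within *lag-2* the hypodermis L2 line is the only one above 0 in every fragment. Near the 5′ end of *lag-1* all lines drop, to -2.29 in seam cells at L4 and -1.84 in seam cells at L2.

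The second question was whether occupancy differed between seam cells and hypodermis. In limma, adjusted over all genes, 0 of 10 genes passed at L4, at L2 or over both stages, and 0.0% of all genes did in each. At an unadjusted p under 0.05, *osm-7* and *dos-2* passed at L4 (4.82% of all genes), and *osm-7*, *osm-11*, *dos-2*, *dos-3* and *lag-2* at L2 (10.4% of all genes). Over both stages *osm-7*, *dos-2* and *dos-3* passed that limit (9.04% of all genes), and in all these cases the value was lower in seam cells. An exact permutation test of 2 values against 2 cannot give a two-sided p under 0.333, and one of 4 against 4 cannot give one under 0.0286.

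The largest differences were those of *osm-11*, *dos-2*, *osm-7* and *lag-2* at L2. For *osm-11*, seam cells minus hypodermis was 0.85 at L4 (95% interval -1.06 to 2.75, adjusted p = 1) and -3.17 at L2 (standard error 0.75, interval -5.08 to -1.27, adjusted p = 0.30). For *dos-2* it was -0.92 at L4 (interval -1.44 to -0.40, adjusted p = 0.70), -1.70 at L2 (standard error 0.20, interval -2.22 to -1.18, adjusted p = 0.15) and -1.31 over both stages (interval -1.68 to -0.94, adjusted p = 0.12). For *osm-7* it was -0.93 at L4 (interval -1.80 to -0.051, adjusted p = 1), -1.29 at L2 (interval -2.17 to -0.42, adjusted p = 0.33) and -1.11 over both stages (interval -1.73 to -0.49, adjusted p = 0.27). *lag-2* differed by 0.079 at L4 and by -1.2 at L2 (interval -2.32 to -0.072, adjusted p = 0.45). The last value rested on seam cells at L2, and was -1.87 without replicate 1 and -0.53 without replicate 2 of that group. Likewise, the *osm-7* difference at L4 was -1.45 without replicate 1 and -0.40 without replicate 2 of seam cells at L4. With the mean over both controls for each replicate, *dos-2* passed at L4 (adjusted p = 0.040), at L2 (adjusted p = 0.0083) and over both stages (adjusted p = 0.0060), and *lag-2* at L2 (adjusted p = 0.049). The 2 values of a group then share their controls, so their spread leaves out the spread between controls.

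Where every seam cell value lay below every hypodermis value, the 2 cell types did not overlap. Over both stages this held for *osm-7* and *dos-2* (2 of 10 genes), against 2.1% of all genes. At L2 it held for 6 of 10, the 5 co-ligand genes and *lag-2*, against 15.2% of all genes. At L4 it held for 5 of 10, *osm-7*, *dos-2*, *apx-1*, *glp-1* and *lag-1*, against 12.8% of all genes, and the mean differences of the last 3 were -0.082, -0.24 and -0.29. Over all kept pairs of replicate and control, however, the cell types overlapped at L2 for *dos-1* and *dos-3*. The opposite order, every seam cell value above every hypodermis value, was found for 0 of 10 genes at L4, L2 or over both stages, against 19.8%, 24.2% and 2.94% of all genes. For the genes near 0 the 95% interval of the difference at L2 was computed as well, with *apx-1* between -0.19 and 0.20, *lag-1* between -0.31 and 0.35, *glp-1* between -0.42 and 0.40 and *lin-12* between -0.70 and 0.61.

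**Figure D4:**
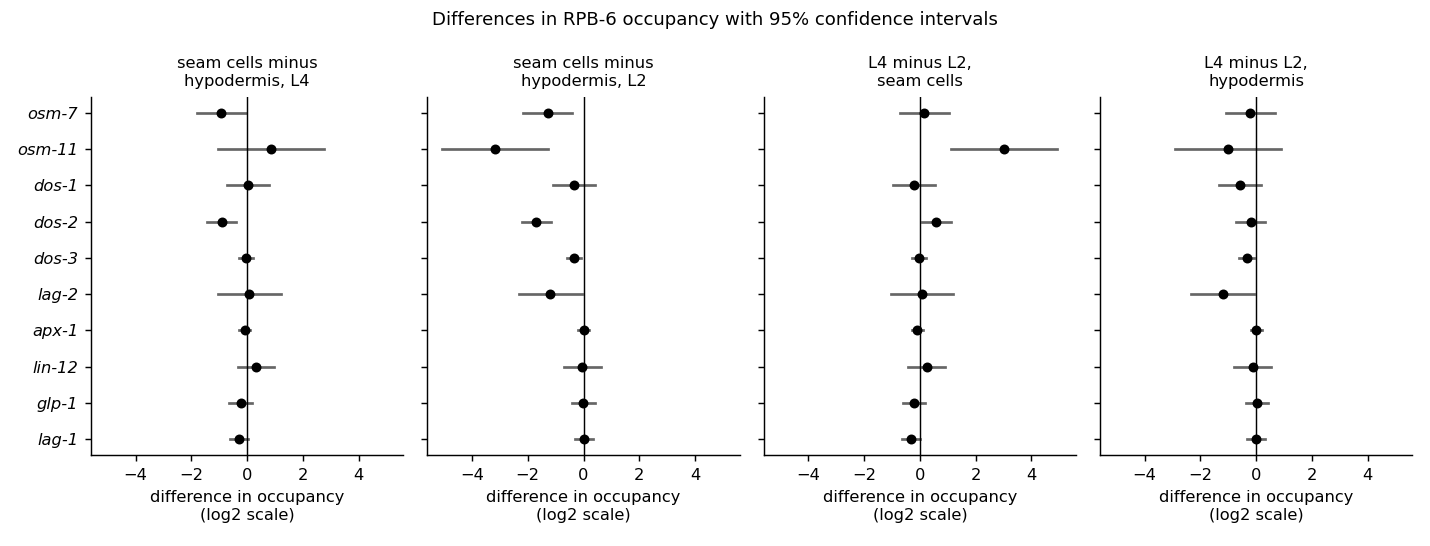
Differences in RPB-6 occupancy (x axes, log2 scale) of the 10 genes (y axis) for seam cells minus hypodermis at L4 and L2 and for L4 minus L2 in seam cells and hypodermis. Points are limma estimates and lines are 95% confidence intervals; *osm-11* lies farthest from 0, at -3.17 between cell types at L2 and at 3.01 between stages in seam cells, and no estimate passed the adjusted threshold.

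The third question was whether occupancy differed between the stages. In limma, 0 of 10 genes passed in seam cells or in hypodermis, and 0.0% of all genes did. At an unadjusted p under 0.05, *osm-11* and *dos-2* passed in seam cells (8.81% of all genes) and *dos-3* and *lag-2* in hypodermis (4.38% of all genes). In seam cells, *osm-11* was higher at L4 by 3.01 (standard error 0.75, interval 1.11 to 4.92, adjusted p = 0.43) and *dos-2* by 0.59 (interval 0.068 to 1.11, adjusted p = 0.52). In hypodermis, *lag-2* was lower at L4, by -1.2 (interval -2.33 to -0.079, adjusted p = 1), and *dos-3* by -0.34 (interval -0.60 to -0.087, adjusted p = 0.95). On the profiles as deposited, which bring back the left-out seam cell L4 profile, the *osm-11* difference in seam cells was 0.61.

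Several co-ligand genes had stages that did not overlap in hypodermis in the 2 values used for each group. In hypodermis, both L4 values lay below both L2 values for 6 of 10 genes, *osm-7*, *dos-1*, *dos-2*, *dos-3*, *lag-2* and *lin-12*, against 18.5% of all genes, and the reverse held for 0 of 10, against 9.91%. Over all kept pairs of replicate and control, the hypodermis stages overlapped for *osm-7*, *dos-1*, *dos-2* and *dos-3*, but not for *lag-2* and *lin-12*. The ranges of *osm-7*, for example, were 1.23 to 1.81 at L4 and 1.31 to 1.97 at L2. L4 minus L2 in hypodermis was -0.21 for *osm-7* and -0.19 for *dos-2*. In seam cells, both L4 values lay above both L2 values for *osm-11* and *dos-2* (2 of 10), against 11.1% of all genes. They lay below for *apx-1*, *glp-1* and *lag-1* (3 of 10), against 24.1% of all genes. The stage difference in seam cells minus that in hypodermis was 4.02 for *osm-11* (interval 1.33 to 6.71, adjusted p = 0.78), 0.78 for *dos-2* (interval 0.042 to 1.51, adjusted p = 0.82) and 1.28 for *lag-2* (interval -0.32 to 2.87, adjusted p = 0.89). It passed the adjusted test for 0 of 10 genes and 0.0% of all genes. At an unadjusted p under 0.05 it passed for *osm-11* and *dos-2*, where 5.89% of all genes did.

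Against all protein-coding genes, the co-ligand genes fell into 3 levels. *osm-11* stood at the top in each group, with 0.04%, 0.946%, 0.14% and 0.035% of genes higher in seam cells at L4, seam cells at L2, hypodermis at L4 and hypodermis at L2. *osm-7* and *dos-2* were among the upper genes in hypodermis only. For *osm-7*, 13.2% and 19.1% of genes were higher in seam cells at L4 and L2, and 2.89% and 3.20% in hypodermis at L4 and L2. For *dos-2* the shares were 15.4% and 88.8% in seam cells at L4 and L2, and 3.22% and 3.74% in hypodermis at L4 and L2. *dos-1* and *dos-3* stayed between 9.79% and 23.4% in every group.

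**Figure D5:**
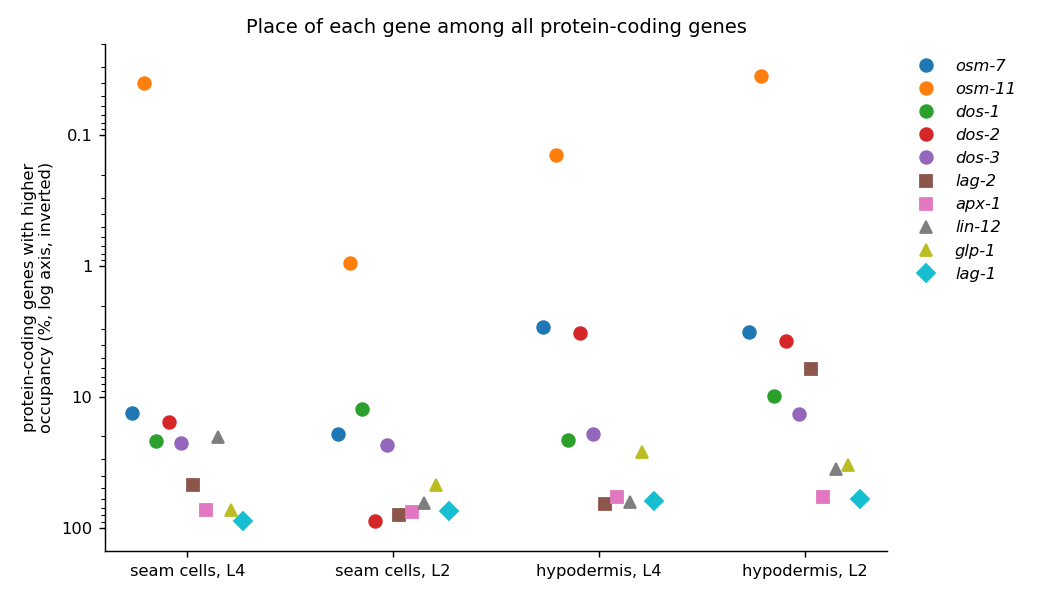
Share of protein-coding genes with a higher occupancy than each of the 10 genes (y axis, percent on an inverted log axis, so that high occupancy is at the top) in the 4 groups (x axis). *osm-11* has fewer than 1% of genes above it in each group, and *lag-2* has 47.1% or more above it in all groups but hypodermis at L2, where it has 6.06%.

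The genes whose 8 values lay closest to those of the co-ligand genes were also compared (mean absolute difference over the 8 values, genes of at least 5 fragments). For *osm-11* these were the collagen genes *col-42* (0.56) and *col-160* (0.65) and *ahcy-1* (0.65), an adenosylhomocysteinase gene. These genes were all lowest in seam cells at L2, which their choice by closeness over these same values favours. *col-42*, for example, had means of 4.67 in seam cells at L4, 2.71 in seam cells at L2, 4.29 in hypodermis at L4 and 4.34 in hypodermis at L2. For *osm-7* they were *mltn-9* (0.19), *vab-19* (0.20), which is needed for the attachment of the epidermis, and *T04F3.1* (0.23). For *dos-2* they were *Y59H11AR.4* (0.14), *F39G3.3* (0.25) and *twk-25* (0.25), and for *dos-3* they were *C16D2.1* (0.063), *jun-1* (0.079) and *acl-4* (0.086).

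Of the other genes of the pathway, 38 of 39 listed were measured, and 1 passed a test. *lst-4*, a reported LIN-12 target, passed the above-0 test in hypodermis at L2 (adjusted p = 0.032). That was 1 of 38 genes, in a group where 5.33% of all genes passed. The means of *lst-4* were 0.40 in seam cells at L4, 0.64 in seam cells at L2, 0.31 in hypodermis at L4 and 0.62 in hypodermis at L2. None of the 38 passed a test between cell types or stages. Their median occupancy was 0.060 in seam cells at L4, 0.16 in seam cells at L2, -0.0013 in hypodermis at L4 and -0.0010 in hypodermis at L2, against 0.20, 0.036, 0.14 and 0.67 over the 10 genes. The 8 other DSL ligand genes, over all 8 values, averaged between -0.30 (*dsl-6*) and 0.49 (*dsl-7*). Genes for receptor cleavage lay between -0.046 (*pen-2*) and 0.48 (*sup-17*, an ADAM protease gene), nuclear partner and turnover genes between 0.14 (*sel-8*) and 0.71 (*sel-10*), and other modulators between -0.11 (*sel-7*) and 0.94 (*epn-1*, epsin). The 14 measured target genes lay between -0.16 (*egl-43*) and 0.50 (*lip-1*).

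GATA factors direct much of epidermal expression in *C. elegans*, and the study drove its hypodermal transgene from a promoter with altered GATA sites. The letters TGATAA, searched on both strands in the 250 bp upstream of each gene start, were present for *dos-2*, *apx-1* and *glp-1* (3 of 10 genes), against 26.8% of all 19983 genes. AGATAG, searched likewise, was present for 0 of 10 genes, against 7.85% of all genes. Of the genes with TGATAA, only *dos-2* passed the above-0 test in hypodermis. The other genes that passed there, *osm-7*, *osm-11* and *dos-3*, had no match. A link between the letters and occupancy was not tested. Its upstream window is shown because it is the one TGATAA match beside occupancy that passed in hypodermis, with the match, which reads TTATCA on this strand and begins 45 bp before the gene start, in capitals.
*dos-2* upstream, chrII:3975992-3976241, plus strand: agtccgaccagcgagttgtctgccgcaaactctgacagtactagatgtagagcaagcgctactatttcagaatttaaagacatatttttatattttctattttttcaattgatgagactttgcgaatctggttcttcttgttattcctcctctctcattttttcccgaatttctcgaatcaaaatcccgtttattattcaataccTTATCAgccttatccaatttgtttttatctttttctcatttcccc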

How the data were processed

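TaDa was analysed from 16 libraries, 2 replicates each of *dam:rpb-6* and *dam:NLS-GFP* in 4 groups of cell type and stage. Reads were mapped to WBcel235 with Bowtie 2 (v2.3.4) and Samtools (v1.9, both versions per the submitters' processing notes), and the authors deposited log2 ratios of *dam:rpb-6* to *dam:NLS-GFP* from damidseq_pipeline for 269057 GATC fragments, in 16 pairwise profiles. Their averaged profiles served as a check (largest difference 0.00274), and their lists of called genes with false discovery rates were not used. Between 14.0% and 44.6% of the scores in a profile were 0.

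Occupancy was the mean score over the fragments that overlap a gene, weighted by overlapped length, for 19983 of 19985 protein-coding genes (Ensembl annotation of WBcel235). Of the 16 profiles, 8 that share no library within a group were used, replicate 1 with control 1 and replicate 2 with control 2, crossed in seam cells at L4. Group means and differences were tested with limma (3.58.1, R 4.3.3) on 4 residual degrees of freedom, with Benjamini-Hochberg adjustment over all 19983 genes and a threshold of 0.05. The fit had 4 group means and, for each gene, a spread pooled over the 4 groups. A p-value for a group thus does not measure the spread of that group alone. The limma step was tested on simulated data. The rest was done in Python (3.11.15) with scipy (1.17.1), pandas (2.3.3) and numpy (2.4.6). No low-value filter was applied.

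All 10 genes, the other pathway genes and markers, and the genes sharing a fragment with one of the 10 were named by rule, and the 3 most alike genes were named for *osm-7* and each gene above 0. The 10 genes, the lists and the tests were chosen with earlier results of these data known. Each replicate of a strain was grown as its own population, which was then divided between L2 and L4, so replicate numbers pair the stages within a cell type. Deviations of same-numbered values correlated with r = -0.121 between stages in seam cells and 0.232 in hypodermis. Alternatives were both controls averaged, crossed controls, profiles as deposited, unweighted means, fragments wholly inside the gene, median centring, quantile normalisation, at least 5 fragments, robust spread, a replicate block, and each replicate left out.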

Additional observations from a re-analysis of the deposited data

How the results depend on the processing

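With 2 values a group, calls rested on few libraries, and the files do not give the depth of each library. Over 19 alternatives, 60 of 1140 recomputed differences of the 10 genes took another sign, none of them called. With both controls averaged, the number of the 10 genes called was 1 for seam cells minus hypodermis at L4, 2 at L2, 1 over both stages, 2 above 0 in seam cells at L4 and 6 in hypodermis at L2, against 0, 0, 0, 1 and 4. The setting of profiles as deposited brings back the left-out profile of seam cells at L4. With it, 0 were above 0 in seam cells at L4 (against 1), 0 were so in hypodermis at L4 (against 2) and 2 in hypodermis at L2 (against 4). Leaving out a replicate gave 0 to 1 above 0 in seam cells at L4, a range of 0 to 1 in hypodermis at L4 and 0 to 4 in hypodermis at L2. The cause was not tested beyond the fewer samples, shared controls or left-out profile that these settings bring.

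The replicate block paired the stages within a cell type for the stage differences only. In the other tests, those above 0 among them, it was a term for replicate number shared by all groups. With the block, 0 genes were above 0 in seam cells at L4 and 0 in hypodermis at L4, and it changed no other call. With crossed numbers in seam cells at L4, chosen after seeing the data, the block gave 0, 0 and, in hypodermis at L2, 2.

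Among all genes, the numbers above 0 in seam cells at L4, seam cells at L2, hypodermis at L4 and hypodermis at L2 were 512, 40, 298 and 1066. They were 1483, 490, 1301 and 2339 with both controls averaged, 0, 0, 2 and 504 as deposited, 215, 0, 90 and 619 with the replicate block, 98, 0, 0 and 527 with it crossed, 1040, 486, 1083 and 1121 after quantile normalisation, 682, 109, 478 and 1302 unweighted, and 579, 10, 488 and 1291 with crossed controls. Median centring gave 473 in hypodermis at L4. Leaving out a replicate gave 2 to 509, 0 to 210, 1 to 187 and 0 to 1065, with 2 in seam cells at L4 without either replicate of that group, 23 there without either hypodermis L2 replicate, and 1 or 7 in hypodermis at L4 without a replicate of that group. With both controls averaged, 104, 1061, 740, 680, 44 and 197 genes passed for seam cells minus hypodermis at L4, at L2 and over both stages, for L4 minus L2 in seam cells and in hypodermis, and for the difference between these, against 0 in each. The other settings gave between 0 and 7.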
